A study of Mus musculus with 12 samples.

Results

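The cytosolic ribosomal protein genes encode the proteins that, together with the ribosomal RNAs, build the large and the small ribosomal subunit. Their rows were taken from the deposited files by symbol: Rpl or Rps followed by a number, the suffixes a and x, the paralog endings l and l1, and in addition Rplp0, Rplp1, Rplp2 and Rpsa. This gave 85 of the 24982 listed genes, of which 43 belong to the large subunit, 30 to the small subunit and 3 to the stalk, and 9 are paralogs of another member. The symbol alone chose them, not any measured value. Genes that code for ribosomal proteins under other names (such as Rack1, Fau and Rps3a1) lie outside this choice and are given separately.

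Polyadenylated RNA of splenic B lymphocytes was sequenced from mice aged 6 weeks, in 3 groups of 4 libraries. WT mice were of the strain written C57BL/J6 in the study design. Eμ-Myc mice carry a Myc transgene under the immunoglobulin heavy chain enhancer, which is active in the B lineage. Eμ-Myc; PRPS2 KO mice carry the same transgene and lack PRPS2, an enzyme that makes phosphoribosyl pyrophosphate, the ribose donor for nucleotides; the labels do not say how the deletion was made or whether it is restricted to a cell type. The study asked which expression programs depend on deregulated Myc, and whether loss of PRPS2 alters them. The labels call the 4 libraries of a group biological replicates and say no more, so p-values measure the spread between these libraries.

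Ribosomal protein genes are among the most highly expressed genes of any growing cell. Their promoters are compact, often without a TATA box, and their messenger RNAs begin with a run of pyrimidines (the TOP motif) through which mTOR signalling and the RNA-binding protein Larp1 control their translation. Myc is known to raise ribosome production at several levels, including ribosomal RNA synthesis, ribosomal protein messenger RNAs and assembly factors. In B cells of Eμ-Myc mice this is known to accompany an increase in cell size and protein synthesis before lymphoma appears.

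The deposited value was a mean coverage per gene, which is already per unit length, so levels of different genes can be set side by side. The number of reads is unknown. Summed coverage per library ran from 1277306 to 1885769. Values below are scaled coverage: the deposited mean coverage divided by a library factor computed from the trimmed mean of log ratios over all genes. Differences are log2 fold changes on log2(scaled coverage + 0.5), with standard errors from limma, and a gene was called where limma's p-value, adjusted by Benjamini-Hochberg over all genes tested in that comparison, was under 0.05. Genes entered a test where 4 or more of the 8 libraries compared had a scaled coverage of 1 or more. Of the 85 members, 82 did so in each comparison; the paralogs Rpl3l, Rpl10l and Rpl39l did not, and Rpl10l was listed at 0 in all 12 libraries.

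Prps2 checked the labels: its scaled coverage was 101, 141, 126 and 143 in WT, 239, 192, 249 and 288 in Eμ-Myc and 18.4, 16.4, 17.3 and 16.4 in Eμ-Myc; PRPS2 KO. Myc stood at 278, 246, 231 and 352 in WT, 1771, 1508, 2262 and 1987 in Eμ-Myc and 1107, 1661, 3048 and 3318 in Eμ-Myc; PRPS2 KO, with the last 2 libraries of the knockout group above all others. The 5 B cell markers (Cd79a, Cd79b, Ms4a1, Cd22, Pax5) were above 0 in all 12 libraries, with summed scaled coverage of 5125, 9619, 8221 and 4903 in WT, 5611, 6554, 5307 and 6267 in Eμ-Myc and 5237, 5306, 4894 and 5058 in Eμ-Myc; PRPS2 KO. Markers of other cells were also present, none at 0 in all libraries of a group. The sum over 8 T cell markers was 989.8, 513, 664 and 2962 in WT, 145, 133, 145 and 105 in Eμ-Myc and 625, 655, 33.5 and 30.7 in Eμ-Myc; PRPS2 KO. The sum over 9 myeloid markers (such as Lyz2, S100a8 and S100a9) was 25359, 8281, 8350.3 and 14756 in WT, 9803, 16353, 6678 and 5784 in Eμ-Myc and 15589, 11142, 3066 and 1337 in Eμ-Myc; PRPS2 KO. Libraries 1 and 2 of the knockout group therefore stood apart from libraries 3 and 4, with more T cell, NK cell (503 and 360 against 21.1 and 18.4), plasma cell (381 and 443 against 107 and 107) and myeloid signal and less Myc. The main results that rest on the knockout group are given with and without them. In bulk RNA, fewer cells of a type and less RNA per cell cannot be told apart.

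Sequences around the transcription start show the motifs for which these genes are known. RefSeq's promoter table for GRCm38.p6, the same build as mm10, held 64 of the 85 members and 27025 genes in all; 21 members had no entry. The windows below run from 15 bases before to 15 bases from the start onward, 5′ to 3′ on the gene's own strand, and capitals mark the longest run of C or T in the window, or the first of 2 equal runs, as in Rpl22. They are 8 of the members described further on, with large or small changes between Eμ-Myc and WT, and not a ranking by size of change. Rps27l and Rpl22 have 2 listed starts each, of which 1 is shown.
Rps27 (chr3:90213634-90213663, minus strand): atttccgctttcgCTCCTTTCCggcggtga
Rps27l (chr9:66946071-66946100, plus strand): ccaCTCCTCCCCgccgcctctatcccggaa
Rpl22 (chr4:152324421-152324450, plus strand): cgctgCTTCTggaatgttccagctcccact
Rpl22l1 (chr3:28805493-28805522, plus strand): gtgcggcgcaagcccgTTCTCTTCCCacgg
Rps2 (chr17:24720048-24720077, plus strand): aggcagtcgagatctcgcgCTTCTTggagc
Rpl14 (chr9:120571502-120571531, plus strand): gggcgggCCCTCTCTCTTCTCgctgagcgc
Rpl15 (chr14:18270972-18271001, minus strand): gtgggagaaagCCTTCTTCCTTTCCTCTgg
Rpl28 (chr7:4792950-4792979, plus strand): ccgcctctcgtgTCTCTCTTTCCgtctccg
Rpl14, Rpl15 and Rpl28 have long uninterrupted runs across the start, of 14, 17 and 11 bases. Rps2 has a short run of 6 and Rpl22 one of 5. Rps27 and Rps27l, whose RNA levels behaved differently, both have a run of 9, across the start in Rps27 and upstream of the listed start in Rps27l.

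Each gene was counted once, with a motif where any of its listed starts had it. A run of at least 10 C or T within 50 bases on either side of the start, on the gene's own strand, was found in 45 of the 64 members (70.3%), against 20.6% of all genes in the table. The ETS core CCGGAAG, searched on both strands from 250 bases before to 50 after the start, was in 25 members (39.1%, against 9.93% of all). The SP core GGGCGG was in 39 (60.9%, against 38.2%), and the YY1 core AAGATGG in 10 (15.6%, against 7.28%). TATAAA within 50 bases before the start was found in 1 member, Rpl22l1 (1.56%, against 3.15%). The E-box core CACGTG, which Myc and Max can bind, was in 6 members (9.38%), a share close to the 8.09% of all genes in the table. These were Rpl13a, Rpl14, Rpl19, Rpl23, Rpl34 and Rps19. Because Myc is the variable of the study, the E-box of 3 of them is shown, with the E-box in capitals.
Rpl14 (chr9:120571337-120571366, plus strand): ccaagctcactgCACGTGtctgaggagaag
Rpl19 (chr11:98026679-98026708, plus strand): tacccagaggacCACGTGaccaaacgccct
Rps19 (chr7:24884781-24884810, plus strand): tggagccgcggcCACGTGcgagcggcaggc
Of these, the Rpl19 E-box lies nearest to the start, beginning 19 bases before it. The 6 members with an E-box had a median log2 fold change of 0.38 between Eμ-Myc and WT, and the 55 tested members without one had a median of 0.47. The medians of members with a long pyrimidine run (0.45, 45 genes) and without one (0.44, 16 genes) were closer still. These are descriptions of letters in a window and show neither binding nor its absence.

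The members differed widely in level. Mean scaled coverage over the 12 libraries was highest for Rps19 (10411), a small subunit protein mutated in Diamond-Blackfan anaemia, followed by Rps21 (8726), the stalk protein Rplp2 (6814), Rps15 (5277) and Rps24 (4439). These 5 genes alone made up 18.3% to 21.1% of the summed coverage of all members in a library. The median of the tested members was 1945, 68 members had a mean of at least 1000, and 80 of at least 100. Below 100 were only the paralogs Rps4l (12.1), which RefSeq lists as a transcribed pseudogene, Rpl32l (3.63), Rpl3l, Rpl39l and Rpl10l. The order of the levels hardly differed from library to library: Spearman's rho over the 85 members was between 0.954 and 0.999 for every pair of libraries, as a description over genes that share libraries and gene lengths. The genes lie on 19 chromosomes, with at most 14 on one (chromosome 7) and 4 on X.

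The members took up a large part of each library. Their share of summed coverage was 8.90%, 10.9%, 10.5% and 11.6% in the 4 WT libraries, 11.3%, 13.4%, 12.9% and 13.7% in Eμ-Myc, and 11.3%, 11.6%, 13.1% and 13.0% in Eμ-Myc; PRPS2 KO. The group values were 10.5% ± 1.15, 12.8% ± 1.04 and 12.3% ± 0.915 (mean ± SD, n = 4 each); the knockout mean was 13.0% without knockout libraries 1 and 2 and 11.5% without 3 and 4. The highest WT library stood above the lowest library of each of the other groups, so the groups overlapped. WT library 1 had the lowest share and the highest myeloid sum. Eμ-Myc library 2, however, had the second highest myeloid sum (16353) with the second highest share, and Eμ-Myc library 4 had the highest share at a myeloid sum of 5784. The part of other cell types in the share was not tested.

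**Figure D1:**
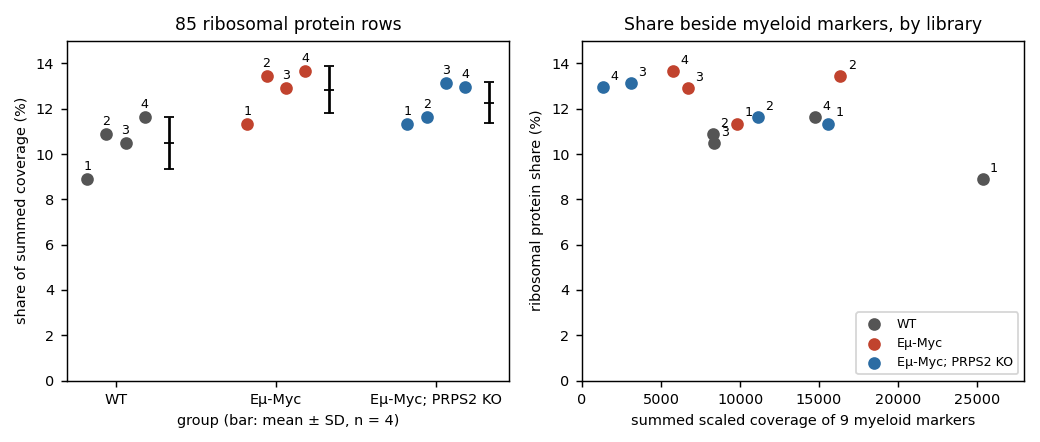
Left, share of summed coverage held by the 85 ribosomal protein rows in each library (percent, vertical axis from 0) with the group mean ± SD (n = 4); right, the same share against the summed scaled coverage of 9 myeloid markers, libraries numbered by replicate. WT library 1 has the lowest share (8.90%) and the highest myeloid sum, Eμ-Myc library 2 has the second highest of both (13.4%), and the WT and Eμ-Myc groups overlap.

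Between Eμ-Myc and WT, most ribosomal protein messenger RNAs rose, by a modest and similar amount. limma called 57 of the 82 tested members, 56 higher and 1 lower, Rps4l; called higher were 68.3% of the members, against 28.3% of the 12704 genes tested, and 27.4% of all genes were called lower. The median log2 fold change of the members was 0.44 (1.36-fold), with quartiles at 0.32 and 0.54, while that of all genes was −0.06, with quartiles at −0.59 and 0.51. It was above 0 for 80 of the 82. The 4 Eμ-Myc libraries all lay above the 4 WT libraries for 38 members (46.3%, against 26.2% of all genes), and all below for Rps4l alone (26.1% of all genes). Scaling by total coverage instead moved the median of all genes by −0.12 and that of the members to 0.31, with 48 called higher and 1 lower; 24.1% of all genes were called higher in that fit, and 42.0% of all calls were higher, against 50.8% with the scaling used here. Beside this, all 8 T cell markers and all 6 NK cell markers were called lower in Eμ-Myc, as were 2 of 4 plasma cell markers, 1 of 4 platelet markers (median −1.05) and 1 of 5 B cell markers (median −0.16), while the myeloid sums of the groups overlapped; their part in the difference of the members was not tested. The members were alike in size of change: 78 of the 82 lay within 0.3 of their median on the log2 scale, and the 4 outside were Rps27, Rps2, Rps27l and Rps4l.

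**Figure D2:**
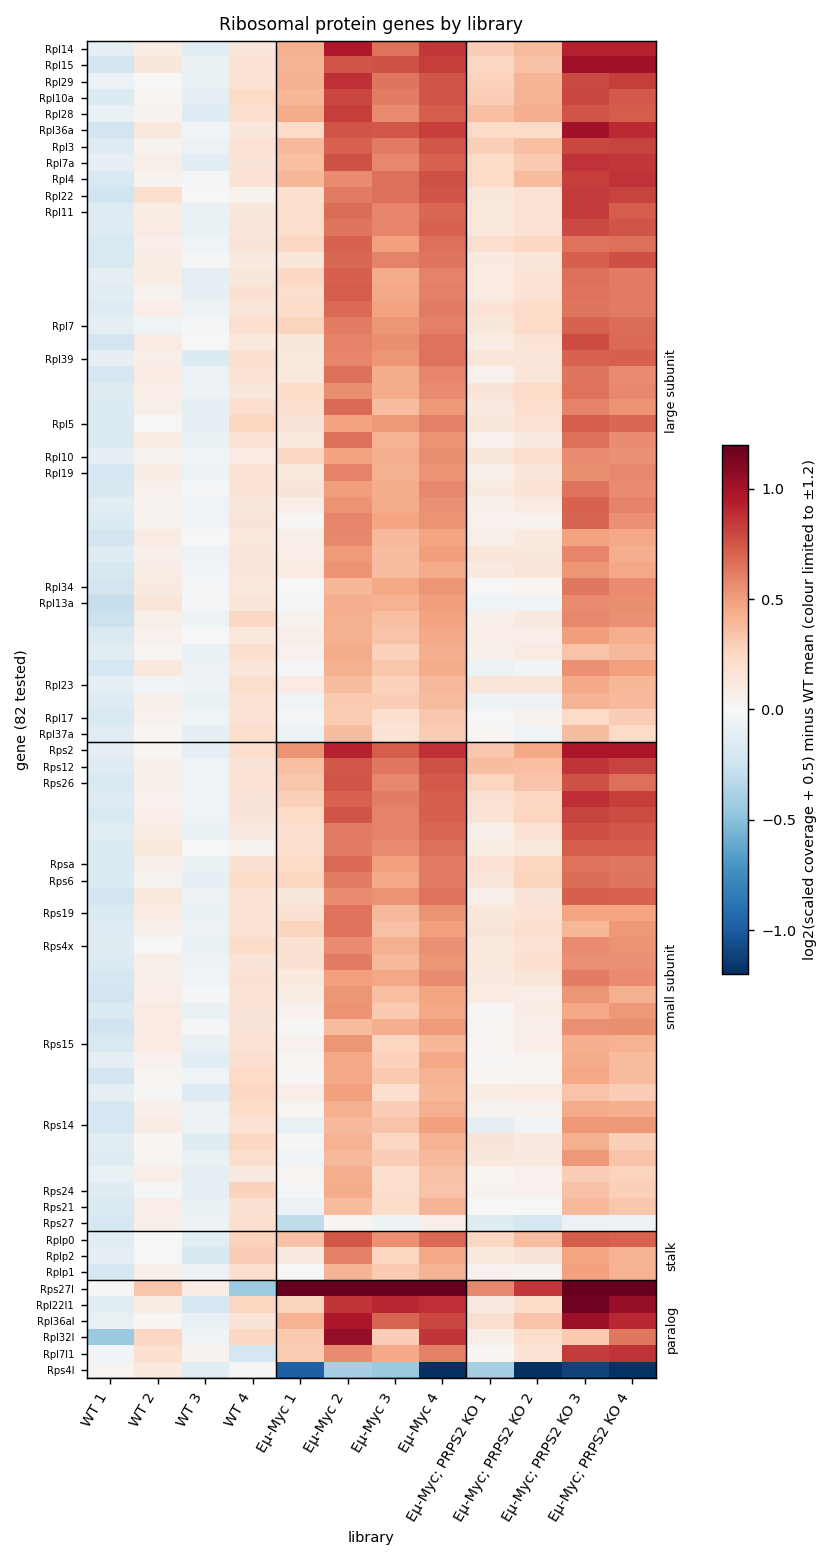
Each row is 1 of the 82 tested ribosomal protein genes and each column 1 library; colour gives log2(scaled coverage + 0.5) minus the gene's WT mean, limited to ±1.2, with rows grouped by role and ordered by the change in Eμ-Myc, and labels for genes named in the text. Most rows are higher in Eμ-Myc libraries 2 to 4 and in knockout libraries 3 and 4; Rps27 stays near its WT level and Rps4l is lower.

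Most large subunit genes were called higher in Eμ-Myc than in WT. Of the 43, 34 were called higher and none lower, against 28.3% and 27.4% of all genes tested. All 43 had a log2 fold change above 0, with a median of 0.45 and a range of 0.19 to 0.72. Rpl14 had the largest increase among them: scaled coverage was 1012, 1159.7, 998 and 1210.3 in WT and 1469, 2121, 1712 and 1964 in Eμ-Myc, which is 0.72 ± 0.13 on the log2 scale (estimate ± SE, adjusted p = 0.00145 in limma). The groups did not overlap. Rpl15, a large subunit protein mutated in some cases of Diamond-Blackfan anaemia, went from 612, 781, 675 and 801 to 949, 1206, 1215 and 1270.0 (0.69 ± 0.13, adjusted p = 0.00164), again without overlap. Rpl29, Rpl10a and Rpl28 rose by 0.67, 0.64 and 0.64 on the log2 scale (adjusted p = 0.00106, 0.00224 and 0.00151). Rpl3, which lies close to the catalytic centre for peptide bond formation, rose by 0.61 (adjusted p = 0.00162).

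Well-known members with smaller increases were Rpl10 and Rpl39. Rpl10, which is added in the last cytoplasmic step of assembly, was at 1343, 1474, 1396 and 1539 in WT and 1703, 2012, 1937 and 2110.0 in Eμ-Myc, a difference of 0.43 ± 0.10 (adjusted p = 0.00505) with no overlap. Rpl39, a small protein of the exit tunnel, changed by 0.47 (adjusted p = 0.016); without Eμ-Myc library 4 its adjusted p was 0.0506. Among the 9 large subunit genes not called, the smallest differences were those of Rpl37a (0.19, adjusted p = 0.222) and Rpl17 (0.20, adjusted p = 0.171). Whether these differ from the genes called was not tested. Under library quality weights Rpl17 was called (adjusted p = 0.0479).

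Rpl5 and Rpl11, which carry the smallest ribosomal RNA into the large subunit and, when free, bind the p53 regulator Mdm2, were both higher. Rpl11 was at 511, 606, 539.7 and 627 in WT and 659.6, 906, 853 and 917 in Eμ-Myc (0.54 ± 0.13, adjusted p = 0.00616), and the groups were separate. Rpl5 was at 411, 465, 433 and 553 and 516, 649, 662 and 705 (0.44 ± 0.13, adjusted p = 0.0179), with WT library 4 above Eμ-Myc library 1. The Rpl5 call did not hold without Eμ-Myc library 3 (adjusted p = 0.0527) or library 4 (adjusted p = 0.0564), or with all 12 libraries in one fit (adjusted p = 0.0540).

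The small subunit had 17 of 30 genes called higher and none lower, against 28.3% and 27.4% of all genes tested. Of the 30, 29 had a log2 fold change above 0, with a median of 0.39 and a range of −0.07 to 0.77. Whether the small subunit differs from the large was not tested. Rps2, at the entrance of the messenger RNA channel, had the largest increase: 1399, 1544, 1404 and 1764 in WT and 2209, 2885, 2522 and 2787 in Eμ-Myc, 0.77 ± 0.12 (adjusted p = 5.94e-04), with every Eμ-Myc library above every WT library. Rps6, the substrate of the S6 kinases, went from 431, 497, 451 and 561 to 577, 742, 663 and 744 (0.49 ± 0.12, adjusted p = 0.00778), with no overlap. Rps19, the most abundant member, was at 7634, 9227, 8134 and 9649 in WT and 9776, 13551, 11304 and 12527 in Eμ-Myc (0.44 ± 0.13, adjusted p = 0.0151). Its groups were separate by a small margin. The X-linked Rps4x rose by 0.43 (adjusted p = 0.0135).

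Of the 25 members that were not called, 13 belong to the small subunit. Rps14, known for its loss in the 5q− syndrome, had 1976, 2423, 2175 and 2564 in WT and 2132, 2983, 2889.8 and 3208 in Eμ-Myc (0.29 ± 0.14, adjusted p = 0.119). The highly expressed Rps21, Rps24 and Rps15 had log2 fold changes of 0.23, 0.24 and 0.31 (adjusted p = 0.156, 0.146 and 0.0654). Over all 25 members not called, adjusted p ran from 0.0502 to 0.665, and 24 of them had a log2 fold change above 0. Eμ-Myc library 1 was the lowest of its group for 80 of the 82 members, all but Rps4l and Rpl32l. Library 1 was also the lowest for 66 members in WT and 68 in the knockout group. In what share of all genes library 1 was lowest was not computed. Without Eμ-Myc library 1, 78 members and 53.6% of all genes were called. Among these members were Rps14 (0.41, adjusted p = 0.0143), Rps21 (0.34, 0.0307), Rps24 (0.33, 0.0484) and Rps15 (0.40, 0.0209). Without WT library 4, Rps24 (adjusted p = 0.0489) and Rps15 (0.0443) were called too. With all 8 libraries, Rps14, Rps21 and Rps15 were called under the replicate block (adjusted p = 0.0218, 0.0228 and 0.0101). Under library quality weights Rps14, Rps21, Rps24 and Rps15 were called (adjusted p = 0.0162, 0.0411, 0.0217 and 0.0165).

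Rps27 was the clearest exception. This zinc-finger protein of the small subunit was at 2637, 3217, 2942 and 3519 in WT and 2476, 3107, 2938 and 3231 in Eμ-Myc, a log2 fold change of −0.07 ± 0.12 (adjusted p = 0.665), the only member of either subunit with a value below 0. The sign turned without Eμ-Myc library 1 (0.013) and the value was near 0 without WT library 4. A near-identical retrogene, Rps27rt, which RefSeq places on chromosome 9 while Rps27 lies on chromosome 3, had 82.4% to 83.1% of the coverage of Rps27 in all 12 libraries. Rpl34-ps1 likewise had 54.7% to 55.2% of Rpl34. How reads that match several copies were counted is not given in the sources used here, so the levels of these pairs are uncertain.

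In the stalk, which recruits elongation factors to the ribosome, Rplp0 rose and its partners were not called. Rplp0, the base of the stalk, was at 2002, 2168, 1984 and 2619 in WT and 2785, 3649, 3186 and 3483 in Eμ-Myc (0.58 ± 0.13, adjusted p = 0.00372), with no overlap. Rplp1 was at 2924, 3569, 3234 and 3930.0 and 3384, 4503, 4227 and 4492 (0.28 ± 0.13, adjusted p = 0.0931), and Rplp2 at 5393, 5776, 5075 and 7122 and 6252, 8802, 6919 and 7931 (0.36 ± 0.14, adjusted p = 0.0576). Both of the latter overlapped between the groups; both were called without Eμ-Myc library 1 (adjusted p = 0.0232 and 0.0283) or without WT library 4 (0.0495 and 0.0181), and with all 8 libraries under the replicate block (0.0156 and 0.0171) or quality weights (0.0108 and 0.00871). The differences among the 3 stalk genes were not tested.

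**Figure D3:**
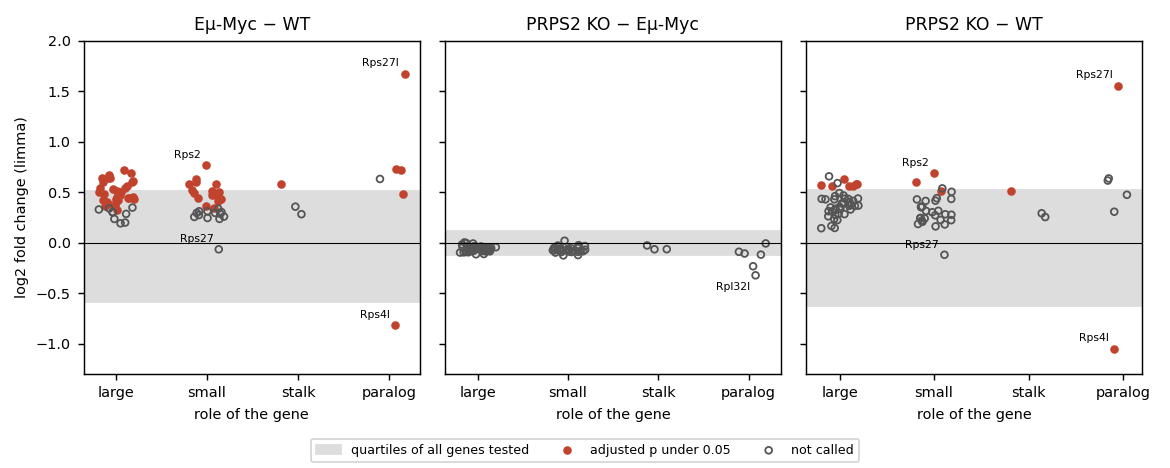
Log2 fold changes (limma) of the 82 tested ribosomal protein genes by role in the 3 comparisons; filled points have an adjusted p under 0.05, open points do not, and the grey band spans the quartiles of all genes tested. Between Eμ-Myc and WT the subunits cluster around 0.44, Rps27l and Rps4l stand apart, and between the knockout and Eμ-Myc no point is filled.

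The paralogs varied most. Rps27l, a paralog of Rps27 known to be induced by p53, had the largest increase of all members: 484, 605, 509.6 and 355 in WT against 1124, 1621, 1676 and 1805 in Eμ-Myc, 1.67 ± 0.19 on the log2 scale (3.19-fold, adjusted p = 9.22e-05). The lowest Eμ-Myc library was above the highest WT library. Rpl22l1, a paralog of Rpl22, which is needed for normal lymphocyte development, was at 1708, 1992, 1619 and 2233 in WT and 2255, 3392, 3505 and 3442 in Eμ-Myc (0.73 ± 0.17, adjusted p = 0.00487). Its groups did not overlap, but WT library 4 and Eμ-Myc library 1 all but met. Rpl36al, a paralog of Rpl36a, rose by 0.72 (adjusted p = 0.00123) and the less abundant Rpl7l1 by 0.48 (adjusted p = 0.00592). The Rpl7l1 call was lost with all 12 libraries in one fit (adjusted p = 0.0607).

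The single member called lower was Rps4l, at a low level. It was at 17.9, 19.0, 16.0 and 17.2 in WT and 8.64, 13.2, 12.7 and 6.11 in Eμ-Myc (−0.82 ± 0.23, adjusted p = 0.0139), without overlap. Rpl32l, at 1.86, 3.32, 2.6 and 3.3 in WT and 3.49, 6.16, 3.43 and 5.32 in Eμ-Myc, was not called (0.63, adjusted p = 0.0573) although its groups did not overlap. Under the replicate block it was called (limma adjusted p = 0.0273). At such levels the deposited values, with 1 decimal, are coarse, and reads shared with a parent gene cannot be told apart.

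Ratios within a library show how a paralog stands to its partner independent of scaling. Rps27l was at 18.3%, 18.8%, 17.3% and 10.1% of Rps27 in WT, 45.4%, 52.2%, 57.1% and 55.9% in Eμ-Myc, and 25.8%, 32.6%, 90.5% and 82.8% in Eμ-Myc; PRPS2 KO. The difference between Eμ-Myc and WT was 1.74 on the log2 scale (3.34-fold), and an exact two-sided permutation test over the 70 arrangements gave p = 0.0286, the smallest it can give, or 0.107 after Benjamini-Hochberg adjustment over 15 ratios and comparisons. By the same test Rps4l against Rps4x differed by −1.25 on the log2 scale (exact p = 0.0286, adjusted 0.107). Between the knockout group and Eμ-Myc the ratio of Rps27l to Rps27 differed by −0.07 (exact p = 0.857), with knockout libraries 1 and 2 below all Eμ-Myc libraries and 3 and 4 above all. Without libraries 1 and 2 the difference was 0.72, and without 3 and 4 it was −0.85 (exact p = 0.0667 for each, the smallest that 15 arrangements can give). For the other paralogs the ratio did not pass the test between Eμ-Myc and WT: Rpl22l1 against Rpl22 differed by 0.17 (exact p = 0.171), Rpl36al against Rpl36a by 0.08 (exact p = 0.343) and Rpl7l1 against Rpl7 by −0.02 (exact p = 0.914). No ratio in any of the 3 comparisons passed 0.05 after adjustment, with all libraries or without either pair of knockout libraries.

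**Figure D4:**
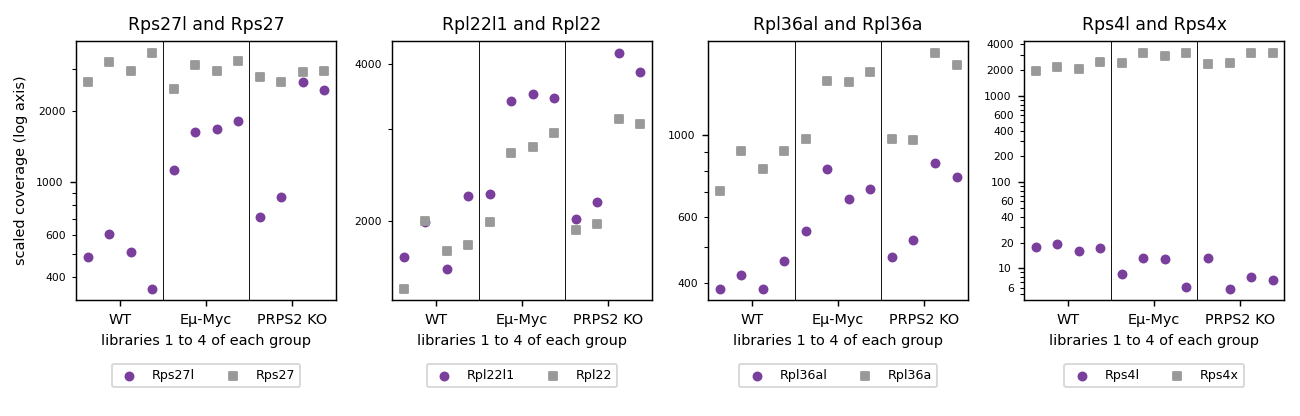
Scaled coverage (log axis) of 4 paralogs (circles) and their partners (squares) in libraries 1 to 4 of each group. Rps27l is higher in all Eμ-Myc libraries than in WT while Rps27 is not, Rpl22l1 and Rpl36al rise together with their partners, and knockout libraries 1 and 2 lie below 3 and 4 for Rps27l, Rpl22l1 and Rpl36al.

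Loss of PRPS2 on the Eμ-Myc background left no member called. limma called 0 of 82 members, 0 also at an unadjusted p under 0.05, while 0.00796% of the 12559 genes tested were called, a single gene, Prps2 (−3.77 ± 0.14, adjusted p = 2.69e-05); 120 genes had an unadjusted p under 0.05. The log2 fold change was below 0 for 80 of the 82 members, with a median of −0.07 against −0.005 over all genes. That count rested on single libraries: without knockout library 1 it was 24 of 82, with a median of 0.017, and without knockout library 2 it was 39, with a median of 0.0035. The 76 members of the subunits and stalk lay between −0.13 and 0.02. Their 95% intervals had a median of −0.45 to 0.31 and reached from −0.58 to 0.48 at the extremes. With the replicate number as a block, the median interval was −0.42 to 0.29 and the extremes were −0.53 and 0.36. Without knockout libraries 1 and 2 the median interval was −0.17 to 0.49, and without 3 and 4 it was −0.63 to 0.05. Changes of a size within a member's interval were not distinguished from 0. Among the members with the smallest p-values were Rpl32l (−0.32 ± 0.25) and Rps19 (−0.13 ± 0.14), neither of which passed (limma adjusted p = 1 for each).

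The knockout group was split within itself. For 81 of the 82 members, all but Rps4l, knockout libraries 1 and 2 both lay below libraries 3 and 4, an order found in 46.7% of all genes. Rps2 was at 1907, 2095, 3003 and 2997, Rpl14 at 1338, 1417, 2067 and 2065 and Rplp0 at 2596, 2818, 3595 and 3567 in the 4 knockout libraries. The first pair lay near or below the lowest Eμ-Myc library and the second pair near or above the highest. Rps27l had the largest spread of all members, with 714, 864, 2631 and 2437, an SD of 0.98 on the log2 scale, against an SD of at most 0.50 for any member in Eμ-Myc. The median SD of the members in the knockout group was 0.27, against 0.20 in Eμ-Myc and 0.16 in WT, and over all genes 0.40, 0.22 and 0.22.

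The comparison with Eμ-Myc turned with the choice of knockout libraries. Without knockout libraries 1 and 2 the median of the members was 0.16 and that of all genes 0.10, 30.8% of the genes tested were called, and 2 members were called higher, Rps27l (0.72, adjusted p = 0.026) and Rpl7l1. Without libraries 3 and 4 the median of the members was −0.29 and that of all genes −0.001, 4.36% of genes were called, and 1 member was called lower, Rps27l (−0.96, adjusted p = 0.0463). With limma's library quality weights, which gave knockout libraries 1 and 2 weights of 0.0851 and 0.127 and libraries 3 and 4 weights of 3.30 and 7.45, the median was 0.15 for the members and 0.075 for all genes, and 9 members were called higher, with 61.3% of all genes called (34.7% higher). In both fits that give libraries 1 and 2 less or no weight, the median of all genes moved up as well. The 2 splits by library were made after the data were seen. The pairs differed in T cell, NK cell, plasma cell and myeloid markers and in Myc, as given above, and the part of these in the result was not tested.

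The comparison of Eμ-Myc; PRPS2 KO with WT uses the same WT libraries as that of Eμ-Myc with WT. limma called 13 members, against 29.4% of the 12710 genes tested; 12 were higher (14.6% of the 82, against 17.6% of genes) and Rps4l lower (11.8% of genes). A share of that size is near the background and is not particular to the members. The median log2 fold change was 0.36 against −0.04 over all genes, and 80 members were above 0. Beside this, all 4 platelet markers were called lower than in WT (median −2.11) and 1 of the 5 B cell markers; none of the T cell, NK cell and myeloid markers was called, with medians of −3.23, −2.50 and −1.18, and the part of these cells in the result was not tested. The knockout libraries all lay above the WT libraries for 20 members (24.4%, against 21.1% of all genes) and all below for Rps4l (17% of all genes).

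Called higher were Rps27l (1.55 ± 0.45, adjusted p = 0.0398), Rps2 (0.69, 0.0335), Rpl14 (0.63, 0.0387), Rps12 (0.60, 0.0313), Rpl4 (0.58, 0.041), Rpl29 (0.58, 0.0337), Rpl28 (0.57, 0.0265) and Rpl3 (0.56, 0.0376), and besides these Rpl7a, Rpl10a, Rplp0 and Rps26. Rps4l was at 13.2, 5.82, 7.85 and 7.4 in the knockout libraries (−1.05 ± 0.24, adjusted p = 0.0253). Side by side, the log2 difference of Rps27l from WT was 1.67 without and 1.55 with the knockout, that of Rps2 was 0.77 and 0.69, and that of Rpl14 was 0.72 and 0.63. The knockout values average a split group, with Rps27l at 714, 864, 2631 and 2437 and Rps2 and Rpl14 split as given above. The log2 ratio of Rps27l to Rps27 differed from WT by 2.46 without knockout libraries 1 and 2. Without knockout libraries 3 and 4 that difference was 0.89. The calls rested on few libraries, and the count of members moved with the share of all genes called. Without WT library 1, 2 or 3, or without knockout library 3 or 4, no member was called, and without WT library 4 only Rpl28; in these 6 fits 3.42% to 8.37% of all genes were called. Without knockout library 1 there were 49 members, with 53.3% of all genes called, and without knockout library 2 there were 19, with 33.2%. Without knockout libraries 1 and 2 together 76 members and 70.03% of all genes were called, with medians of 0.61 and −0.02. Without libraries 3 and 4 no member and 11.0% of all genes were called, with medians of 0.13 and −0.03.

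Genes that work with the ribosomal proteins were set beside them, on lists chosen with earlier results of these data known. Of 4 other ribosomal protein genes examined, 2 were called higher in Eμ-Myc against WT, where 28.3% of all genes were. These were Rack1, a scaffold on the small subunit (0.52, adjusted p = 0.00634), and Rps3a1 (0.45, 0.0146). Fau, whose product starts as a fusion with a ubiquitin-like protein, was at −0.02 (adjusted p = 0.897) and Rps27rt at −0.06; both changed sign when single libraries were left out.

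As given above, 28.3% of all genes were called higher and 27.4% lower in this comparison. Of 18 chaperones and nuclear import factors of ribosomal proteins, 15 were called higher and none lower, and the median was 0.91. Ipo5, an importin, was at 107, 115, 124 and 121 in WT and 379, 323, 452 and 498 in Eμ-Myc (1.80 ± 0.14, adjusted p = 1.06e-05). The nucleolar protein Npm1 rose by 1.58 and Rrs1, which helps to load Rpl5 and Rpl11, by 1.36. Among other messenger RNAs with a TOP motif, such as elongation and initiation factors, 23 of 26 were called higher, with a median of 0.71. Pabpc4, a poly(A)-binding protein, rose by 1.49 and Eif3l by 1.06. Npm1 and Nap1l1 are on both lists. Whether these medians differ from that of the members was not tested.

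Of 19 genes that control TOP messenger RNA translation or belong to the S6 kinase pathway, 6 were called higher and 4 lower. These shares are near those of all genes (28.3% and 27.4%). Larp1, which binds the TOP motif, was at 72.8, 73.2, 71.8 and 84.7 in WT and 147, 149, 146 and 158 in Eμ-Myc (0.99 ± 0.09, adjusted p = 2.80e-05). The cap-binding protein Eif4e rose by 1.09 and Rictor, a subunit of mTOR complex 2, changed by −1.37 (adjusted p = 5.07e-04). Of 12 tested transcription factors reported at ribosomal protein promoters, 3 were called higher, again near the share of all genes, and none lower. The 3 were Myc itself (2.77), Tbp (0.36) and Mxi1 (0.64, adjusted p = 0.0308). The Mxi1 call was lost without WT library 2, 3 or 4 and without any single Eμ-Myc library, with adjusted p up to 0.0785. Scaled by total coverage, neither Tbp (adjusted p = 0.053) nor Mxi1 (0.0549) was called, and Tbp was not called with all 12 libraries in one fit (0.0732). None of the genes on these lists was called between Eμ-Myc; PRPS2 KO and Eμ-Myc with all libraries, or without knockout libraries 3 and 4. Without libraries 1 and 2, where 14.97% of all genes were called higher and 15.8% lower, 13 of the 18 chaperones and carriers (median 0.52) and 5 of the 26 other TOP messenger RNAs (median 0.28) were called higher and none lower. In that fit 5 of the 19 translation control genes were called higher and 1 lower, 2 of the 12 transcription factors higher and 1 lower, and none of the 4 other ribosomal protein genes. The direction turned with the libraries kept. Without libraries 3 and 4 the median was −0.46 for the chaperones and carriers and −0.35 for the other TOP messenger RNAs. In this second fit 2.40% of all genes were called higher and 1.96% lower.

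**Figure D5:**
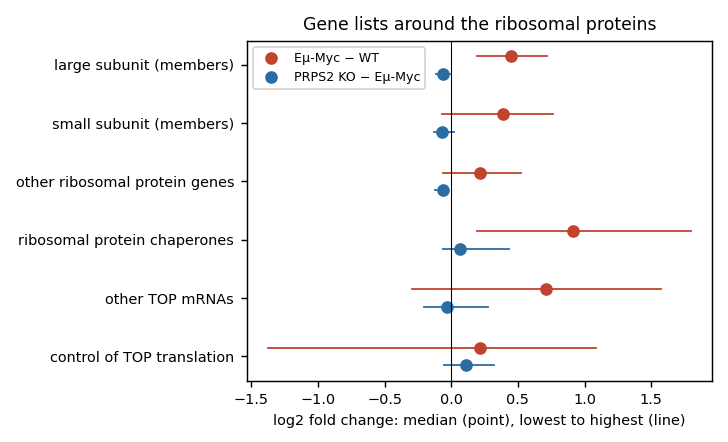
Median (point) and lowest to highest value (line) of the log2 fold changes in each gene list, for Eμ-Myc minus WT and for Eμ-Myc; PRPS2 KO minus Eμ-Myc. Chaperones (0.91) and other TOP messenger RNAs (0.71) have higher medians in Eμ-Myc against WT than the large (0.45) and small subunit (0.39) genes, and the knockout medians, with all 4 knockout libraries, lie near 0.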

How the data were processed

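Per the labels' protocols, splenic B lymphocytes were lysed in TRIzol and a directional library kit was used. The authors deposited for each library a mean coverage per gene, to 1 decimal, with no header; that this coverage signal is not a count was read from the values, since 91.6% of those above 0 were not whole. The submitters' processing notes name mm10, DESeq and R 4.3.3; the aligner and the treatment of reads with several matches are not given in the sources used here.

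Libraries were scaled to their geometric mean by a trimmed mean of log ratios (30% of ratios and 5% of means cut off on each side). Genes for which 4 or more of the 8 libraries compared had a scaled value of 1 or more entered limma 3.58.1 (trended, robust empirical Bayes, two-sided) on log2(value + 0.5), adjusted by Benjamini-Hochberg over all genes tested. The fit was tested on simulated data with known fold changes, for Eμ-Myc against WT and for the knockout against Eμ-Myc. Estimates were close to the fold changes put in, part of the changed genes was missed, and false calls made up more than the nominal share. The simulation drew noise separately for each gene and changed few genes. Shifts shared by many genes of a library, such as the split of the knockout group, were not part of it. Samples were grouped by genotype label. No count model applied, so no depth or counting interval is given. Alternatives were other scalings, filters and pseudocounts, a joint fit of all 12 libraries, the replicate number as a block, library weights and leaving out libraries; the labels give no batch.

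Replicate numbers were checked for pairing: deviations from the group means of same-numbered knockout and Eμ-Myc libraries correlated at 0.67, 0.19, 0.25 and 0.62 over 12366 genes, all above 0.1, which is a sign of pairing from the data, not from the labels, although 4 of 8 libraries correlated best with their own number. Printed standard errors, p-values and intervals are from the fit without the block unless the block is named; the block changed no call of a member there. The members, lists and tests were chosen with earlier results of these data known. Named are the stalk, 5S-particle and paralog genes and their partners, the 5 highest and 5 lowest members by mean, the 8 called members with the largest change in each direction, the 3 with the smallest p where fewer than 3 were called, some well-known members, and the 3 genes with the smallest p of each other list. Rpl32l was placed among the paralogs, and Rpl37a, Rpl17 and the near-identical copies were named, after their values were seen. A few genes, 1 of them a member and others from the lists, are not reported here by name. Sequences are RefSeq's, for GRCm38.p6.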

Additional observations from a re-analysis of the deposited data

Results flagged for a closer look

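In 6 of 201 groups of 4 libraries examined (members, other named genes and ratios), 1 library lay far from the other 3 by Dixon's test; chance gives about 1 group in 20. In Eμ-Myc library 1 Rpl22l1 stood at 2255 (scaled coverage), against 3392 to 3505 in the other Eμ-Myc libraries. The log2 ratio of Rps27l to Rps27 was −3.31 in WT library 4, and that of Rps4l to Rps4x was −7.43 in knockout library 1, higher than in the other knockout libraries. Among genes outside the family, Larp1 had 84.7 in WT library 4, Mxi1 262.7 in WT library 1 and Pabpc4 481 in Eμ-Myc library 1. Library 1 was the lowest of its group for 80 of the 82 members in Eμ-Myc, 66 in WT and 68 in the knockout group. The share of all genes with library 1 lowest was not computed. WT library 4 had the highest T cell marker sum (2962) and WT library 1 the highest myeloid sum (25359). The part of these in the flagged values was not tested.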

How the results depend on the processing

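In Eμ-Myc against WT the count of called members stayed between 46 (all 12 libraries in one fit, 43.4% of all genes called) and 79 (library quality weights, 70.5%) over the alternatives that kept all 8 libraries, and between 41 and 78 with 1 library left out (46.7% to 55.2% of all genes), and the median of the members was above 0 in each. The replicate block gave 78 (57.5%). There same-numbered libraries correlated at 0.25, −0.10, 0.28 and 0.14, not all above 0.1, and 4 of 8 correlated best with their own number. For the knockout against WT the correlations were 0.41, −0.42, 0.13 and −0.05 (2 of 8). Neither these values nor the labels settle whether libraries of the same number were paired. In the knockout against WT the block gave 0 called members in place of 13, with 12.5% of all genes called. Rps27, Fau and Rps27rt turned sign with 1 library left out (−0.14 to 0.013, −0.11 to 0.059 and −0.14 to 0.017).

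In Eμ-Myc; PRPS2 KO against Eμ-Myc, leaving out 1 library gave medians of −0.16 to 0.02 and 0 members called. Library weights gave 9 called and a median of 0.15 (all genes 61.3% and 0.075), with Rpl32l at 0.079, Rps19 at 0.061, Rps27l at 0.59, Rpl22l1 at 0.25 and Rplp0 at 0.15. Without knockout libraries 1 and 2 there were 2 called with a median of 0.16 (all genes 30.8% and 0.10), and Rps19 was at 0.033, Rps27l at 0.72, Rpl22l1 at 0.38 and Rplp0 at 0.14; without libraries 3 and 4 there was 1 with a median of −0.29 (all genes 4.36% and −0.001). With 1 library left out Rps27l ranged from −0.42 to 0.21, Rpl22l1 from −0.27 to 0.083 and Rplp0 from −0.14 to 0.021. The cause was not tested.

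In Eμ-Myc; PRPS2 KO against WT the count was 25 with all 12 libraries in one fit (47.4% of all genes called), 81 with weights (82.9%, median of the members 0.57), 0 to 49 with 1 library left out (3.42% to 53.3%), 76 without knockout libraries 1 and 2 (70.03%, median 0.61) and 0 without 3 and 4 (11.0%, median 0.13); these counts move with the share of all genes. Some ratios turned sign: with 1 library left out, Rpl7l1 to Rpl7 ranged from −0.15 to 0.064 in Eμ-Myc against WT and from −0.10 to 0.12 in the knockout against WT, Rpl36al to Rpl36a from −0.0080 to 0.070 there, and, in the knockout against Eμ-Myc, Rpl22l1 to Rpl22 from −0.084 to 0.032 and Rps27l to Rps27 from −0.35 to 0.25. In the knockout against Eμ-Myc, leaving out knockout libraries 1 and 2 turned Rpl22l1 to Rpl22 (0.11) and Rps27l to Rps27 (0.72), and leaving out 3 and 4 turned Rpl7l1 to Rpl7 (−0.069, and −0.087 against WT) and Rps4l to Rps4x (0.15). Read depth is unknown, and values rounded to 1 decimal limit the lowest members, Rps4l and Rpl32l.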

Other observations

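Values that belong to no comparison concern copies of members outside the chosen rows. Rpl14-ps1 had 2.10% to 2.87% of the coverage of Rpl14 over the 12 libraries, Rplp2-ps1 0.630% to 0.912% of Rplp2, and the member Rpl32l 0.078% to 0.141% of Rpl32. Unlike these, Rps27rt and Rpl34-ps1 kept an almost fixed ratio to their parent genes in all 12 libraries.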
